A study of Homo sapiens with 8 samples.

Results

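Small-RNA counts of 9 marker miRNAs of blood and endothelium were examined in a colorectal cancer cell line cultured with a toxin-producing gut bacterium. The 9 miRNAs were taken by name from the 2575 names in each count file, as markers of these cell classes, with earlier results of these data known. They comprise 3 erythroid miRNAs (hsa-miR-451a, hsa-miR-486-5p and hsa-miR-144-3p), 4 leukocyte miRNAs (hsa-miR-142-3p, hsa-miR-142-5p, hsa-miR-223-3p and hsa-miR-150-5p) and the endothelial pair hsa-miR-126-3p and hsa-miR-126-5p. The libraries came from HCT116, an established human colorectal carcinoma line, at passages 16 to 19, and all groups shared this 1 line. In the ETBF group, 4 samples had been exposed for 6 h to enterotoxigenic Bacteroides fragilis, an anaerobe of the colon whose toxin is a metalloprotease, with 500 given as the multiplicity of infection. In the control group, 4 samples, titled as untreated, had received bacterial medium without the bacterium. The labels do not say whether replicates were separate cultures. The p-values set the difference between groups against the spread among these samples. That spread may be technical, so the p-values may not extend to new cultures. Library totals were 2591655 to 4706156 counts with ETBF and 5243400 to 6522542 counts in the controls, so that 3 counts, the upper limit behind an observed 0, stood for 0.447 to 1.12 CPM (counts scaled to a common library total). Such limits cover counting error only.

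A miRNA is a short RNA cut from a hairpin that guides an Argonaute protein to messenger RNAs, chiefly through its seed, bases 2 to 8. MiR-451a and miR-144-3p arise from neighbouring hairpins on a transcript that is strongly induced in maturing red cells, and miR-451a is unusual in that its hairpin is cut by the Argonaute protein AGO2 in place of Dicer. MiR-142 is made across the blood lineages, miR-223-3p chiefly in myeloid cells and miR-150-5p in mature lymphocytes. MiR-126 is carried by the endothelial gene EGFL7 and is best known for its role in vessel integrity. In tissue or plasma samples these miRNAs serve as signs of blood or vessel cells, whereas HCT116 is an epithelial line. Bulk libraries of mixed tissue cannot tell fewer cells of a type from less RNA per cell. The libraries here all came from HCT116, and the source of each miRNA within the cultures was not tested.

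The mature sequences of 6 of the 9 miRNAs were matched by name in the RefSeq table of build GRCh38.p14. They are shown because each count rests on reads of these short sequences, and because both arms of the miR-126 and miR-142 hairpins could be compared within a library. Capitals mark the seed, and all run 5′ to 3′.
hsa-miR-144-3p: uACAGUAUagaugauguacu
hsa-miR-142-3p: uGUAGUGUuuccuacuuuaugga
hsa-miR-142-5p: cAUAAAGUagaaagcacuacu
hsa-miR-223-3p: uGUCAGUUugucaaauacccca
hsa-miR-126-3p: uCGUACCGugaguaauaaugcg
hsa-miR-126-5p: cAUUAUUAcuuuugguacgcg

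The 6 sequences were 20 to 23 bases long, and no pair of them shared a seed. Their G and C content ran from 30.0% in miR-144-3p to 45.5% in miR-126-3p. Among the other mature miRNAs searched, only hsa-miR-5590-3p shared a seed with one of them, that of miR-142-5p, and it did not pass the filter on low counts. That search, and the matching by name, left out a chromosome of the table, so a missing match does not show that RefSeq lacks the sequence. The remaining miRNAs, miR-451a, miR-486-5p and miR-150-5p, are named only.

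The hairpins of the pairs with both arms counted are given with the mature arms in capitals, the 5p arm first. MIR126 is 85 bases long and MIR142 is 87.
MIR126: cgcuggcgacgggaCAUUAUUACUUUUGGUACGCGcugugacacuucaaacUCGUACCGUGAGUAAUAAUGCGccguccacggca
MIR142: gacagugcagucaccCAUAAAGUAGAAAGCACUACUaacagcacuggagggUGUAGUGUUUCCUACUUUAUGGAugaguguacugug

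In GRCh38, MIR126 lies at chr9:136670602-136670686 on the plus strand, within an intron of EGFL7 on the same strand (GENCODE release 29). MIR142 lies at chr17:58331232-58331318 on the minus strand, in an exon of the antisense transcript gene AC004687.1 and, on the opposite strand, within an intron of TSPOAP1-AS1. MIR144 (chr17:28861533-28861618) and MIR451A (chr17:28861369-28861440) lie 92 bases apart on the minus strand, in an exon of the long noncoding RNA gene AC024267.1. MIR451A overlaps MIR451B on the opposite strand. Whether the authors counted by strand is not given in the sources used here. MiR-451b had no count in any of the 8 libraries, which does not settle whether the overlap affected the counts of miR-451a. MIR223 lies at chrX:66018870-66018979, in an exon of AL034397.3, and MIR150 at chr19:49500785-49500868, outside other genes. The authors' counts were made on GRCh37.p5 and carry no coordinates, so these positions describe the genes and were not joined to the counts.

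With ETBF, miR-451a rose and miR-126-3p fell, and the other 7 miRNAs showed no change that passed the test or were too rare to be tested. Of the 9 miRNAs, 6 passed the filter on low counts, and these were tested with edgeR's quasi-likelihood test, with Benjamini-Hochberg adjustment over all 480 miRNAs tested and a threshold of 0.05. Of the 6, 1 was called higher (16.7%), against 19.8% of all 480, and 1 was called lower (16.7%), against 14.6%. The groups did not overlap for 2 of the 6 (33.3%), against 33.8% of all tested. These shares lie near the background, so the counts do not set the 6 miRNAs apart from the rest of the table. The median log2 fold change was -0.07 over the 6 and 0.01 over all 480. Fold changes are ETBF against control on the scale of TMM-normalized counts throughout, and levels are TMM-normalized CPM, an abundance per mature miRNA with no correction for length.

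**Figure D1:**
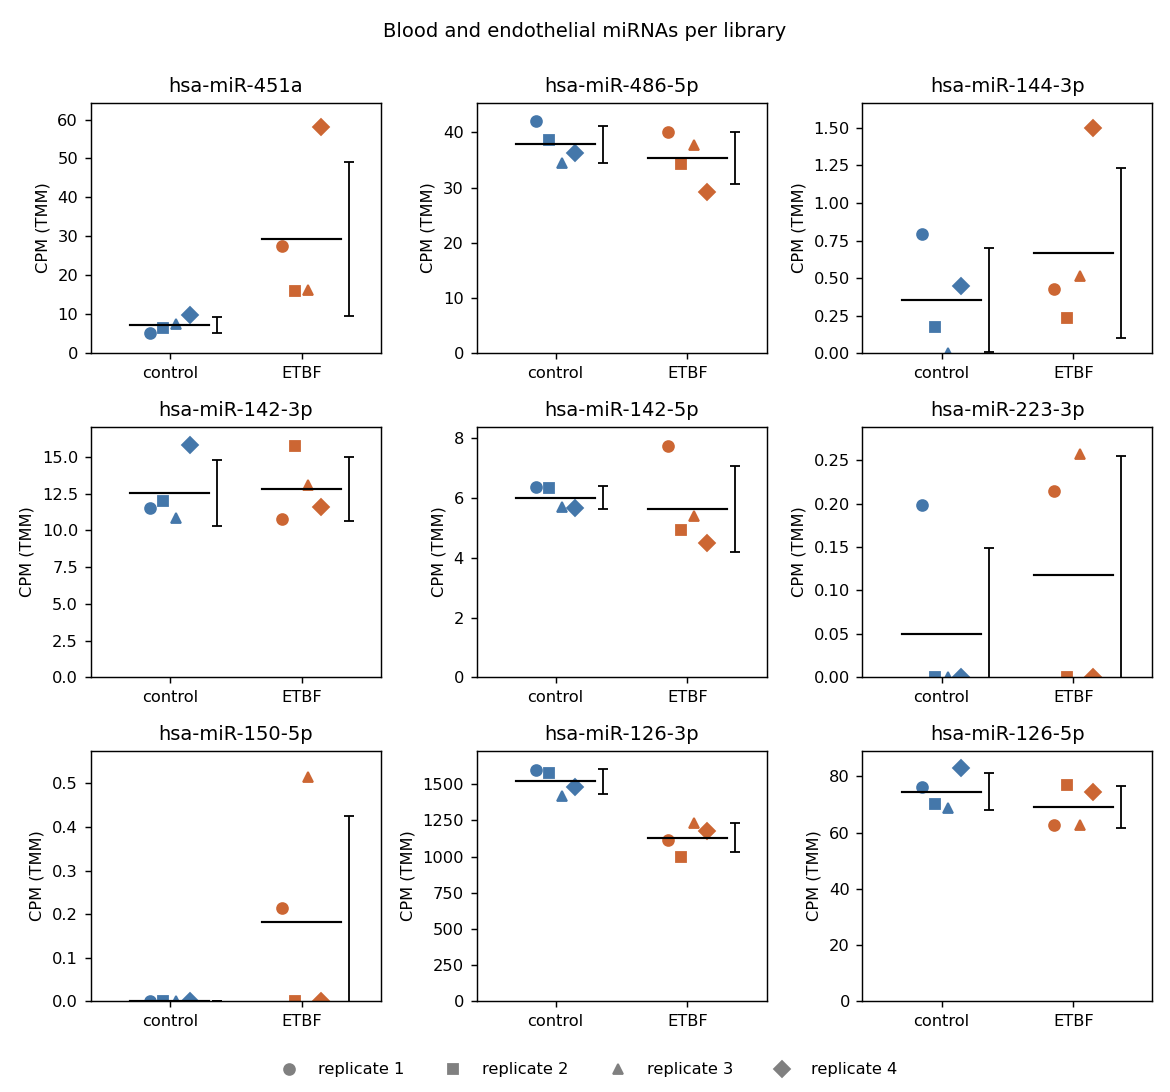
Normalized CPM (linear axes from 0, one scale per panel) of the 9 miRNAs in each control and ETBF library, with the marker shape giving the replicate, the line the group mean and the bar 1 SD. MiR-451a lies at 16.0 to 58.0 CPM in the ETBF libraries and 5.17 to 9.84 CPM in the controls, and miR-126-3p is lower in every ETBF library than in any control library.

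**Figure D2:**
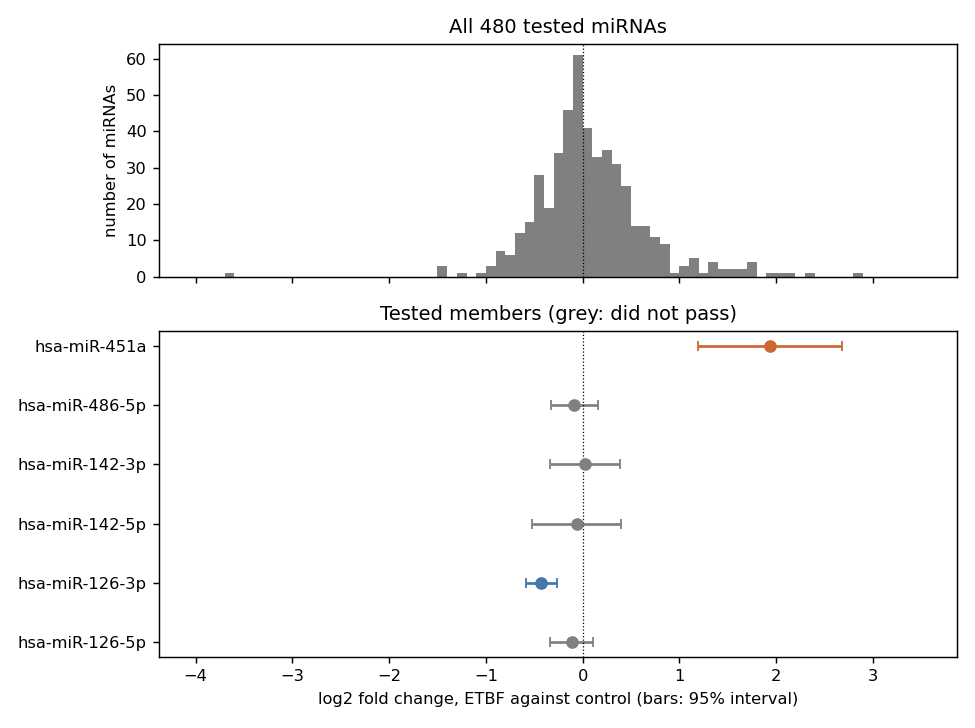
Log2 fold changes, ETBF against control, for all 480 tested miRNAs as a histogram (top) and for the 6 tested marker miRNAs as points with 95% intervals (bottom). MiR-451a stands at 1.94 and miR-126-3p at -0.43, and the intervals of the other 4 include 0.

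Among the erythroid miRNAs, miR-451a was counted 128, 68, 63 and 155 times in ETBF replicates 1 to 4 and 26, 37, 39 and 66 times in the controls. As CPM this was 27.5, 16.0, 16.2 and 58.0 with ETBF and 5.17, 6.51, 7.41 and 9.84 in the controls. Every ETBF library was above every control library, and ETBF replicate 4 stood well above the other 3. The mean was 29.4 ± 19.8 CPM with ETBF and 7.23 ± 1.97 CPM in the controls (SD, n = 4 each). MiR-451a rose 3.83-fold (log2 fold change 1.94, SE 0.35, 95% interval 1.19 to 2.68, edgeR adjusted p = 0.000458). Without ETBF replicate 4, which was also the shallowest library, the log2 fold change was 1.44 (SE 0.23, edgeR adjusted p = 0.00023). The coefficient of variation of miR-451a was 67.3% among the ETBF libraries and 27.2% among the controls. MiR-451a ranked 249th of all 2575 names by mean CPM.

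MiR-486-5p, the other miRNA that dominates red cells, showed no change that passed the test. Its level was 40.2, 34.3, 37.7 and 29.2 CPM in ETBF replicates 1 to 4 and 42.1, 38.6, 34.4 and 36.2 CPM in the controls. The groups overlapped, with the lowest value in ETBF replicate 4, the library where miR-451a was highest. The means were 35.3 ± 4.76 and 37.8 ± 3.34 CPM (SD, n = 4 each), and the log2 fold change of -0.09 did not pass (95% interval -0.33 to 0.16, edgeR adjusted p = 0.605). The interval of miR-486-5p leaves out a rise of the size seen for miR-451a.

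MiR-144-3p, made from the hairpin next to that of miR-451a, was near the limit of detection. It had 2, 1, 2 and 4 counts in ETBF replicates 1 to 4 and 4, 1, 0 and 3 counts in the controls. The groups overlapped, and no library exceeded 4 counts. Summed over each group this was 0.581 CPM with ETBF (exact Poisson 95% interval 0.266 to 1.10) and 0.353 CPM in the controls (0.152 to 0.695). The ratio of the rates was 1.65 with an exact 95% interval of 0.564 to 4.91, which includes both no change and the fold change of miR-451a. These intervals rest on counts summed over each group. They cover counting error only and leave out the spread between libraries. MiR-144-3p did not pass the filter and was not tested.

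Within each library, the miR-451a count was 0.684, 0.466, 0.429 and 1.99 times that of miR-486-5p in ETBF replicates 1 to 4 and 0.123, 0.169, 0.215 and 0.272 times in the controls. MiR-451a exceeded miR-486-5p only in ETBF replicate 4, and every ETBF ratio was above every control ratio. A ratio within a library does not depend on the scaling between libraries. The mean log2 ratio was -0.47 ± 1.01 with ETBF and -2.41 ± 0.48 in the controls (SD, n = 4 each), a difference of 1.94. The two-sided exact permutation test over 70 arrangements gave p = 0.0286, the smallest it allows, and 0.0857 after Benjamini-Hochberg adjustment over the 3 ratios tested, so this ratio could not pass the threshold by itself. The miR-451a count was 64.0, 68.0, 31.5 and 38.8 times that of miR-144-3p with ETBF. In control replicates 1, 2 and 4 it was 6.5, 37.0 and 22.0 times, and control replicate 3 had no miR-144-3p count. These ranges overlapped, and with so few miR-144-3p counts the ratio was not tested.

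**Figure D3:**
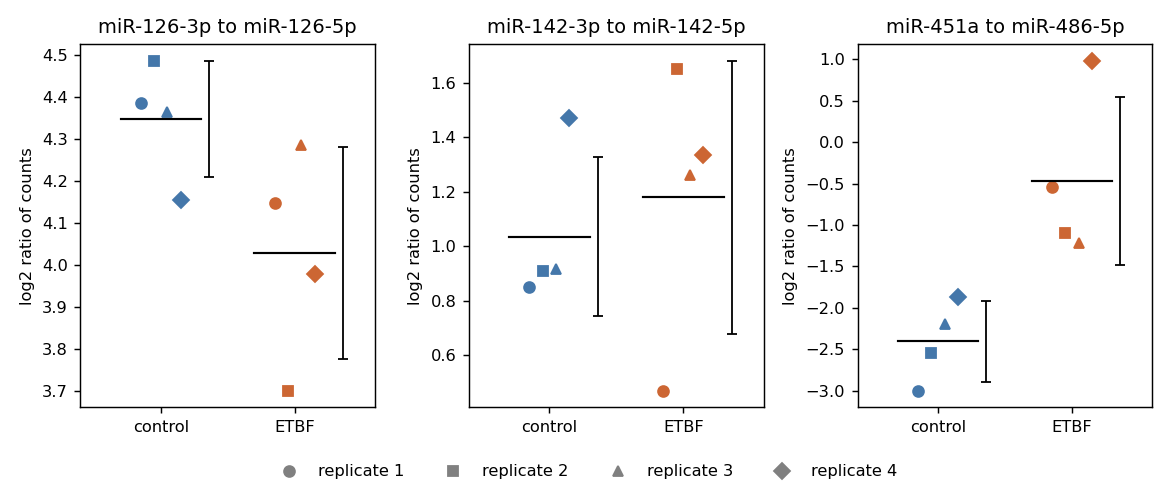
Log2 ratio of counts within each library for the 3 ratios tested, with marker shapes for replicates, lines for group means and bars for 1 SD. The ratio of miR-451a to miR-486-5p is higher in every ETBF library than in any control, while the other ratios overlap between groups.

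Other features moved with miR-451a. A list of 14 miRNA names was drawn up as overlapping or resembling ribosomal or other structural RNA, and the resemblance itself was not tested. It had 13 names in the files, 6 of them tested. Of these 6, 5 rose (against 19.8% of all tested) and none fell, with a median log2 fold change of 1.61. The summed level of the 13 names was 204, 236, 313 and 618 CPM in ETBF replicates 1 to 4 and 52.7, 180, 109 and 78.0 CPM in the controls. ETBF replicate 4 was the highest library both for this sum and for miR-451a, but 1 name, miR-6087, gave 445 of the 618 CPM there and 129 of the 180 CPM in control replicate 2. Without miR-6087, a sum taken after seeing the data, the levels were 125, 134, 158 and 173 CPM with ETBF and 28.4, 51.2, 33.8 and 37.3 CPM in the controls. The groups did not overlap in either sum, and without miR-6087 ETBF replicate 4 was still the highest but close to replicate 3. In the same list, miR-7641 had a log2 fold change of 2.86 (SE 0.23), miR-3687 of 1.72 (SE 0.34), miR-6087 of 1.51 (SE 0.49) and miR-1303 of 0.84 (SE 0.14). The part of these entries in the rise of miR-451a was not tested.

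**Figure D4:**
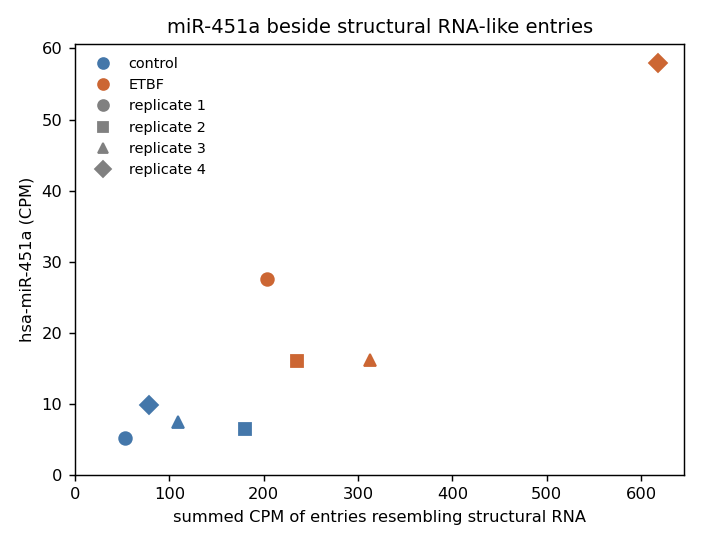
Normalized CPM of miR-451a in each library against the summed CPM of 13 names listed as resembling structural RNA, with color for the group and marker shape for the replicate. ETBF replicate 4 is highest on both axes, at 58.0 CPM of miR-451a and 618 CPM of the summed names, of which miR-6087 gives 445 CPM, and the 4 controls are lowest for miR-451a.

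By Pearson correlation of log2 CPM over the 8 libraries, the tested miRNAs most like miR-451a were miR-1303 (r = 0.915), miR-769-3p (r = 0.914) and hsa-let-7a-2-3p (r = 0.912). All were measured in the same libraries with the same scaling, and the difference between groups enters each r. The log2 fold change was 0.84 for miR-1303 (edgeR adjusted p = 0.000258) and 1.04 for let-7a-2-3p (edgeR adjusted p = 6.69e-05). For miR-769-3p it was 0.27 and did not pass (edgeR adjusted p = 0.0836). Among the other tested marker miRNAs, r with miR-451a was -0.62 for miR-486-5p and -0.75 for miR-126-3p. It was nearer 0 for miR-142-5p (-0.36), miR-126-5p (-0.21) and miR-142-3p (-0.06).

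The leukocyte miRNAs were low, and the 2 that were tested did not differ beyond the spread between libraries. MiR-142-3p, the 3p arm that is abundant in all blood lineages, was at 10.7, 15.7, 13.1 and 11.6 CPM in ETBF replicates 1 to 4 and 11.5, 12.0, 10.8 and 15.8 CPM in the controls. The groups covered nearly the same range. The means were 12.8 ± 2.19 and 12.5 ± 2.23 CPM (SD, n = 4 each), with a log2 fold change of 0.02 (95% interval -0.34 to 0.39, edgeR adjusted p = 0.923).

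MiR-142-5p, the other arm of that hairpin, was at 7.73, 4.93, 5.39 and 4.49 CPM in ETBF replicates 1 to 4 and 6.36, 6.34, 5.70 and 5.67 CPM in the controls. ETBF replicate 1 was the highest library and the other 3 ETBF libraries lay below the controls. The means were 5.64 ± 1.45 and 6.02 ± 0.385 CPM (SD, n = 4 each), and the log2 fold change of -0.06 did not pass (95% interval -0.52 to 0.40, edgeR adjusted p = 0.849). The 3p arm was counted 1.39, 3.19, 2.43 and 2.58 times as often as the 5p arm in the ETBF libraries and 1.81, 1.89, 1.90 and 2.79 times in the controls. MiR-142-3p thus exceeded miR-142-5p in all 8 libraries. The mean log2 ratio of the arms was 1.18 ± 0.503 with ETBF and 1.03 ± 0.290 in the controls (SD, n = 4 each). Their difference of 0.14 was within the spread (two-sided exact permutation p = 0.657, adjusted over 3 ratios 0.657).

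MiR-223-3p, the myeloid miRNA, had 1, 0, 1 and 0 counts in the ETBF libraries and 1, 0, 0 and 0 in the controls. Over the groups this was 0.129 CPM (exact Poisson 95% interval 0.0156 to 0.467) and 0.0441 CPM (0.00112 to 0.246). MiR-150-5p, the lymphocyte miRNA, had 1, 0, 2 and 0 counts with ETBF and none in any control library. Its level was 0.194 CPM with ETBF (exact Poisson 95% interval 0.0400 to 0.566) and 0 CPM in the controls (0 to 0.163). Both miRNAs were at or under 3 counts in each group, so no fold is given and a difference was not detectable at this depth.

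The endothelial pair was the most abundant of the 9. MiR-126-3p, the major arm and a regulator of vascular growth factor signalling, was at 1115, 1000.2, 1229 and 1177 CPM in ETBF replicates 1 to 4 and 1598, 1578, 1419 and 1481 CPM in the controls. All 4 ETBF libraries lay below all 4 control libraries. The mean was 1130 ± 98.5 CPM with ETBF and 1519 ± 83.8 CPM in the controls (SD, n = 4 each). MiR-126-3p fell 1.34-fold (log2 fold change -0.43, SE 0.08, 95% interval -0.59 to -0.26, edgeR adjusted p = 0.000429). These levels rested on 3145 to 9936 counts per library, the deepest of the 9 miRNAs, and placed it 51st of all 2575 names by mean CPM.

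MiR-126-5p, cut from the other side of the same hairpin, was at 62.7, 76.8, 62.9 and 74.5 CPM in ETBF replicates 1 to 4 and 76.3, 70.2, 68.8 and 83.0 CPM in the controls. The groups overlapped, with 2 ETBF libraries within the control range and 2 below it. The means were 69.2 ± 7.46 and 74.6 ± 6.51 CPM (SD, n = 4 each), and the log2 fold change of -0.11 did not pass (95% interval -0.33 to 0.11, edgeR adjusted p = 0.445). That interval overlaps that of miR-126-3p, so the passing of 1 arm does not by itself show that the arms differed.

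The difference between the arms was tested as their ratio. MiR-126-3p was counted 17.8, 13.0, 19.5 and 15.8 times as often as miR-126-5p in ETBF replicates 1 to 4 and 20.9, 22.5, 20.6 and 17.8 times in the controls. The ETBF ratios were lower apart from that of ETBF replicate 3, which lay above the lowest control, replicate 4. The mean log2 ratio was 4.03 ± 0.252 with ETBF and 4.35 ± 0.139 in the controls (SD, n = 4 each), a difference of -0.32 that did not pass (two-sided exact permutation p = 0.0571, adjusted over 3 ratios 0.0857). Over the 8 libraries the arms' log2 CPM had a Pearson r of 0.25.

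The miRNAs most like miR-126-3p over the 8 libraries were miR-301b (r = 0.966), miR-574-5p (r = 0.962) and miR-941 (r = 0.958), measured in the same libraries with the same scaling. Their log2 fold changes were -0.66, -0.48 and -0.70, each past the threshold. Among markers of the line's own epithelial class, more were called lower than higher. Of 10 colorectal epithelial miRNAs 9 were tested, of which 5 fell (against 14.6% of all tested), 1 rose (against 19.8%) and 3 did not pass, with a median log2 fold change of -0.19. Their summed level was 26906 to 30525 CPM with ETBF and 30833 to 32799 CPM in the controls. MiR-200c-3p, which holds cells in an epithelial state, fell from 13635 to 10957 CPM (log2 fold change -0.32, SE 0.07, edgeR adjusted p = 0.00154). Of the other 3 most abundant, miR-200a-3p of the same family fell (log2 fold change -0.19, edgeR adjusted p = 0.0308) and miR-200b-3p did not pass (-0.03, edgeR adjusted p = 0.795). MiR-31-5p, abundant in many colorectal tumours, rose from 2745 to 3466 CPM (log2 fold change 0.34, edgeR adjusted p = 0.0119). The part of these markers in the fall of miR-126-3p was not tested.

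By mean CPM the order in the controls was miR-126-3p, miR-126-5p, miR-486-5p, miR-142-3p, miR-451a, miR-142-5p, miR-144-3p, miR-223-3p and miR-150-5p. Neighbours in this order did not overlap between libraries, except miR-451a with miR-142-5p and miR-223-3p with both miR-144-3p and miR-150-5p. With ETBF, miR-451a moved from the fifth to the fourth place, where its libraries overlapped those of miR-486-5p. MiR-126-3p made up 90.7% to 92.2% of the counts of the 9 miRNAs in the control libraries and 86.8% to 90.0% in the ETBF libraries. MiR-451a made up 0.297% to 0.603% in the controls and 1.18% to 4.28% with ETBF. All 9 together took 0.155% to 0.168% of a control library and 0.121% to 0.140% of an ETBF library.

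Summed by cell class, the erythroid miRNAs were at 50.5 to 88.7 CPM with ETBF and 41.8 to 48.1 CPM in the controls. The leukocyte miRNAs were at 16.1 to 20.7 and 16.5 to 21.5 CPM, and the endothelial pair at 1077 to 1292 and 1488 to 1675 CPM. The erythroid and endothelial sums did not overlap between groups, and each contains 1 miRNA that passed. Markers of stroma and muscle, other cells that bulk tissue can hold, were at 385 to 429 CPM with ETBF and 413 to 428 CPM in the controls. Of 7 names, 6 were in the files and 4 were tested. None of the 4 passed, against 19.8% called higher and 14.6% called lower of all 480 tested. With only 4 tested, this does not show that the list was stable.

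A wider list of 16 blood and endothelial miRNAs was read beside the 9. Of these, 12 had counts and 7 were tested, of which 1 rose (against 19.8% of all tested), 1 fell (against 14.6%) and 5 did not pass, with a median log2 fold change of -0.26. These counts are near or below the background, so they say nothing particular to the list, and the values below describe single miRNAs. MiR-503-5p, a cell cycle and endothelial miRNA of the miR-424 cluster, rose from 8.95 ± 1.99 to 16.4 ± 1.31 CPM (SD, n = 4 each; log2 fold change 0.86, SE 0.17, edgeR adjusted p = 0.000718). Its cluster partner miR-424-5p had a log2 fold change of 0.38 (SE 0.17) and did not pass (edgeR adjusted p = 0.0953). For both partners, every ETBF library lay above every control library. MiR-342-3p, which is abundant in lymphocytes, fell from 68.3 ± 3.34 to 53.8 ± 3.22 CPM (SD, n = 4 each; log2 fold change -0.35, SE 0.09, edgeR adjusted p = 0.00707).

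The minor arms and cluster partners of the erythroid miRNAs were too rare, or too variable, for a comparison with miR-451a. MiR-486-3p, the minor arm of the miR-486 hairpin, had 8, 14, 37 and 16 counts with ETBF and 37, 53, 34 and 32 counts in the controls. Its log2 fold change was -0.49 (SE 0.37) and did not pass (edgeR adjusted p = 0.346). MiR-144-5p had 2, 2, 1 and 6 counts with ETBF and 1, 2, 3 and 6 counts in the controls, which are the deeper libraries. As CPM this was 0.430, 0.470, 0.257 and 2.24 with ETBF and 0.199, 0.352, 0.570 and 0.895 in the controls. The groups overlapped, ETBF replicate 4 was the highest library, and miR-144-5p was not tested. MiR-4732-3p and miR-4732-5p, from the same erythroid cluster as miR-144, were at 0 in all 8 libraries, as was miR-150-3p, so no direction can be read from them.

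**Figure D5:**
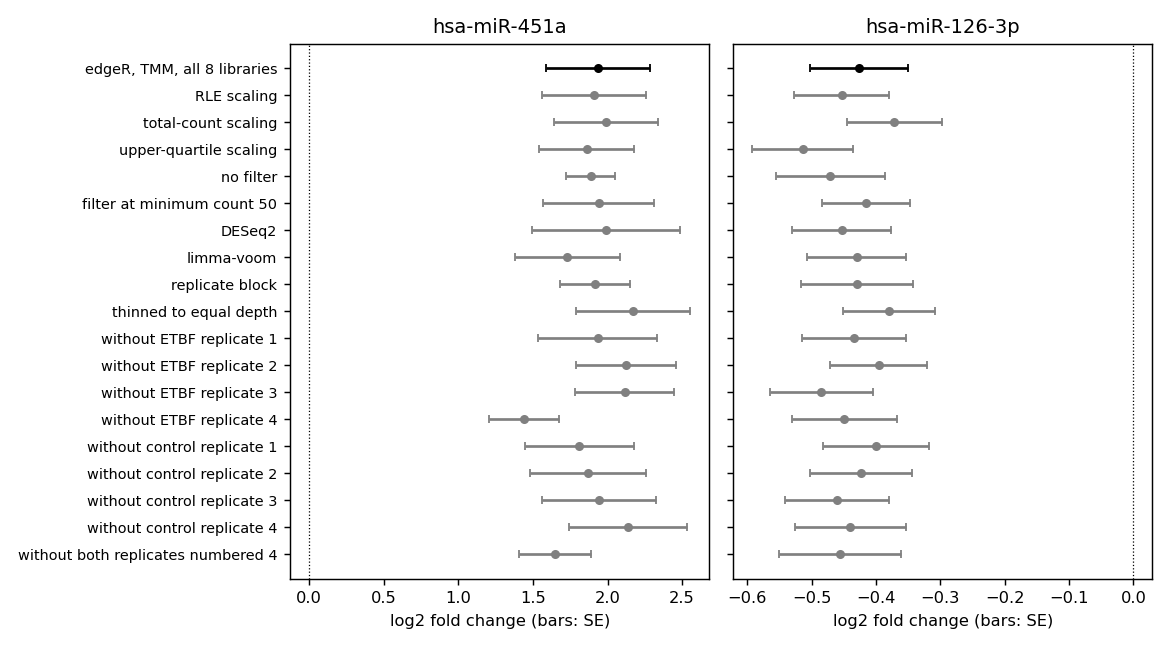
Log2 fold change with SE of miR-451a (left) and miR-126-3p (right) under each processing setting and without each library in turn. MiR-451a ranges from 1.44 without ETBF replicate 4 to 2.17 after thinning to equal depth, and miR-126-3p from -0.51 to -0.37, with no setting crossing 0.

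Under 18 other settings, miR-451a remained the only one of the 9 miRNAs called higher and miR-126-3p the only one called lower. The plot of fold changes by setting shows these ranges. Without ETBF replicate 4 and control replicate 4 together, a setting chosen after seeing the data, the log2 fold changes were 1.65 for miR-451a and -0.46 for miR-126-3p.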

How the data were processed

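The deposited files hold raw counts per mature miRNA name, made by the authors for each of the 8 libraries. Per the submitters' processing notes, reads were handled with Trimmomatic, FastQC and featureCounts on GRCh37.p5. For the aligner, tool versions, annotation release and strand setting, nothing was given in the sources used here. No pair of libraries within a group held near-identical counts (chi-square per degree of freedom 18.4 to 112).

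The 2575 names were filtered with edgeR's filterByExpr at a minimum count of 10, which left 480. TMM factors, the quasi-likelihood test and two-sided Benjamini-Hochberg adjusted p-values came from edgeR 4.0.16 in R 4.3.3, without a replicate block and with a threshold of 0.05. Each SE was taken as the log2 fold change over the root of F, and 95% intervals use the test's degrees of freedom. Log2 CPM for correlations used a prior count of 2. Ratios used counts plus 0.5 and exact permutation in scipy 1.17.1, where both counts had a median of at least 10. Rates of untested miRNAs have exact Poisson intervals on counts summed over each group, which leave out the spread between libraries.

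Alternatives were RLE (the DESeq2 size factors), total-count and upper-quartile scaling, no filter, a minimum count of 50, DESeq2 1.42.0, limma-voom (limma 3.58.1), the block, thinning to 2591655 counts, and leaving out each library. The scripts were tested on simulated data. All 9 members are named. From the other lists the text gives the 4 most abundant tested miRNAs at most, those whose libraries move with a member, and, for miR-451a and miR-126-3p, the 3 with the highest correlation. The minor arms and cluster partners of the members, with their counts, were named after their values were seen. Members and lists were chosen with earlier results of these data known.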

Additional observations from a re-analysis of the deposited data

Results flagged for a closer look

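In each group of 4 libraries, the most extreme library was compared with its nearest neighbour, as a share of the group's range. Of 25 groups examined, 2 were past Dixon's limit for 4 values, and chance alone passes about 1 group in 20. For hsa-miR-223-3p, control replicate 1 was at 0.199 CPM, which is 1 count, and the other 3 controls were at 0. For the log2 ratio of miR-142-3p to miR-142-5p, control replicate 4 was at 1.47 and the other 3 controls at 0.85 to 0.92, a gap of 0.892 of the range. The value of miR-451a in ETBF replicate 4 was not past the limit, with a gap of 0.726 of the range.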

How the results depend on the processing

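The counts of members called higher and lower were 1 and 1 under all 18 alternatives, with the same miRNAs. The adjusted p reached at most 0.0018 for miR-451a and 0.00334 for miR-126-3p. Leaving out 1 library at a time gave log2 fold changes of 1.44 to 2.14 and -0.49 to -0.40. Upper-quartile scaling called 71 of all tested miRNAs higher and 89 lower, against 95 and 70 with TMM. Only values near 0 changed sign. MiR-142-3p went from 0.02 to -0.0013 with RLE, -0.054 with upper-quartile scaling and -0.016 with no filter, and to between -0.12 and 0.16 without 1 library. MiR-142-5p ranged from -0.28 (without ETBF replicate 1) to 0.011 (without ETBF replicate 4). The log2 ratio of miR-142-3p to miR-142-5p ranged from -0.014 (without ETBF replicate 2) to 0.38 (without ETBF replicate 1). With the replicate number as a block, miR-451a was at 1.92 (edgeR adjusted p = 0.00018) and miR-126-3p at -0.43 (edgeR adjusted p = 0.00334), and no call of a member changed. Paired by number, the exact sign-flip test gave p = 0.125 for the ratios of miR-126-3p to miR-126-5p and of miR-451a to miR-486-5p, the smallest that 4 pairs allow, and 0.75 for the miR-142 arms. Same-numbered libraries correlated at -0.06 to 0.06 after removal of group means, and 0 of 4 correlated best with its own number, so the numbers were not taken as pairs. The minimum count of 50 did not test miR-142-5p. With no filter all 9 members were tested, and miR-144-3p, miR-150-5p and miR-223-3p did not pass (edgeR adjusted p = 0.685, 0.271 and 0.707). Depth limits these 3, at 9 counts or fewer per group. The fit with no filter had 8976 degrees of freedom, so a miRNA's own spread hardly entered its p-value there.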
